A study of Mus musculus with 11 samples.

Results

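Among 6 normal skin pieces of mice, 2 carried the messages of hair shafts and inner root sheaths at high levels and 4 carried them at low levels. The pieces were chosen by these messages. For every array the mean log2 intensity was taken over hair keratins, 5 of the inner root sheath (Krt25, Krt27, Krt28, Krt71, Krt73) and 2 of the hair shaft (Krt31, Krt35), which are 7 of the 8 keratins of the rule; 1 further keratin was not analysed here. The 2 arrays with the highest mean, normal skin 1 and 3, formed the high group and the other 4 the low group, out of 11 arrays in all. The lowest high array had a mean of 9.59 and the highest low array 5.56, a gap of 4.03. Because the grouping rests on measured values, every difference between high and low skins over the 20352 genes is given as a description, without a test.

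The study set 5 keratoacanthomas, squamous tumours built of keratinocytes, against these 6 skins on mouse whole-transcript arrays. All tumours grew in K14-Cre;Zmiz1 double transgenic mice. Normal skin 1 (high) and 2 (low) came from such K14-Cre;Zmiz1 mice, normal skin 3 (high) and 4 (low) from mice with K14-Cre alone, and normal skin 5 and 6 (both low) from mice with Zmiz1 alone. K14-Cre places Cre recombinase under the keratin 14 promoter, which is active in basal keratinocytes of epidermis and follicles, and Zmiz1 encodes a co-activator of transcription. Age, sex, body site and the animal of origin of the pieces were not given in the labels, so that the p-values below measure the spread between these arrays.

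Hair follicles of the mouse pass through repeated rounds of growth (anagen), regression (catagen) and rest (telogen). In growth, matrix cells at the base of the bulb divide and their progeny become the medulla, cortex and cuticle of the shaft and the concentric layers of the inner root sheath that moulds it, each with its own keratins, while melanocytes of the bulb hand pigment to the shaft. In rest, the lower follicle is absent and a small club hair remains. In bulk tissue, fewer cells of a kind and less RNA per cell cannot be told apart.

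A short motif near the start is frequent in the promoters of the keratin families that lay higher in the high skins. The motif TATAAA, searched on the sense strand from 45 to 16 bases before the start of transcription in RefSeq's promoter windows (GRCm38.p6), stood in 5 of 7 promoters of inner root sheath keratins (71.4%), 4 of 9 of hair shaft keratins (44.4%) and 24 of 40 of keratin-associated proteins (60.0%), against 702 of all 32851 windows (2.14%). Neighbouring members of these families are copies of each other, so their promoters are not independent. Shown here are the 100 bases before the start for 3 sheath keratins and 2 keratin-associated proteins of large difference, 5′ to 3′ on the gene's strand, with TATAAA in capitals.
Krt25 (chr11:99322952-99323051, minus strand): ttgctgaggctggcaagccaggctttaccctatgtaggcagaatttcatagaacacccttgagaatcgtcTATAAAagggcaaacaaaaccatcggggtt
Krt26 (chr11:99337966-99338065, minus strand): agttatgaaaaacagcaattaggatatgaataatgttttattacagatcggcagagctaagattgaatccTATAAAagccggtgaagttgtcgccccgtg
Krt71 (chr15:101743098-101743197, minus strand): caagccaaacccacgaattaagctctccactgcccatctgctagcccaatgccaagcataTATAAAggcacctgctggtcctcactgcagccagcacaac
Krtap6-5 (chr16:89047900-89047999, minus strand): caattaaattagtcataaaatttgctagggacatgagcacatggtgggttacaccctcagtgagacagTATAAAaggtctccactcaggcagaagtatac
Krtap8-1 (chr16:89487953-89488052, minus strand): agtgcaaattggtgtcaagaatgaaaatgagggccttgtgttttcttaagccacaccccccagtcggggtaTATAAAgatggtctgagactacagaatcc
In these windows the motif began 30, 30, 40, 32 and 29 bases before the start. Over all 229 promoters of genes higher in skin 1 and 3, 47 held it (20.5%), and over the 177 of them outside the keratins and keratin-associated proteins 16 did (9.04%). A match is a string of letters in this window and says nothing about what binds there.

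A second set of promoters belongs to the mitosis list, of whose 39 genes 16 were higher in skin 1 and 3. The pentamer CCAAT, searched on both strands over the 250 bases before the start (ATTGG where it lies on the other strand), stood in 28 of 35 promoters of the mitosis list (80.0%), against 33.8% of all windows, and TATAAA in 1 (2.86%). Given here are the last 100 bases before the start of Ccnb2, a mitotic cyclin, Ube2c, a ubiquitin-conjugating enzyme of mitotic exit, and Plk1, a mitotic kinase, all 3 among the higher genes, with the pentamers in capitals.
Ccnb2 (chr9:70421555-70421654, minus strand): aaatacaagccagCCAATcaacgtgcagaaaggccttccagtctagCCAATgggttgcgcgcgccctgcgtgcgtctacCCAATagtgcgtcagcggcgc
Ube2c (chr2:164769829-164769928, plus strand): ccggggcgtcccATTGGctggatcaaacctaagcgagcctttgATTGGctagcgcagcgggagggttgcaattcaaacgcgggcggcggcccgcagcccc
Plk1 (chr7:122159335-122159434, plus strand): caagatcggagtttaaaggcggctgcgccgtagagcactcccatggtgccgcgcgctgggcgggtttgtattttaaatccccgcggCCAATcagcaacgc
In this stretch the motif stands 3 times in Ccnb2, 2 times in Ube2c and 1 time in Plk1. Over all 229 promoters of genes higher in skin 1 and 3, CCAAT stood in 87 (38.0%), close to the share of all windows. Over the 177 of them outside the keratins and keratin-associated proteins it stood in 66 (37.3%).

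Normal skin 1 and 3 stood close to each other in the rule keratins and the 4 low skins stood together far below them. Krt25, a type I keratin of the inner root sheath, read 10.71 and 10.61 on the log2 scale in normal skin 1 and 3 and 4.67, 5.62, 5.47 and 5.60 in normal skin 2, 4, 5 and 6. Its partner Krt71, a type II keratin of the same sheath, read 10.74 and 10.65 against 5.50, 6.10, 5.76 and 5.74. In both genes the low skins spanned less than 1 unit, and the gap between the groups was several times that. Krt31, a type I keratin of the hair cortex, read 9.53 and 9.09 against 5.04, 5.65, 6.01 and 5.72, and Krt35, a type I keratin of the matrix, precortex and cuticle, 8.76 and 8.36 against 5.45, 5.65, 5.12 and 5.70. Across the 7 keratins the high minus low difference ran from 3.08 for Krt35 to 5.32 for Krt25, the latter 39.9-fold on the linear scale. All 7 were somewhat higher in normal skin 1 than in normal skin 3, by a median of 0.40.

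**Figure D1:**
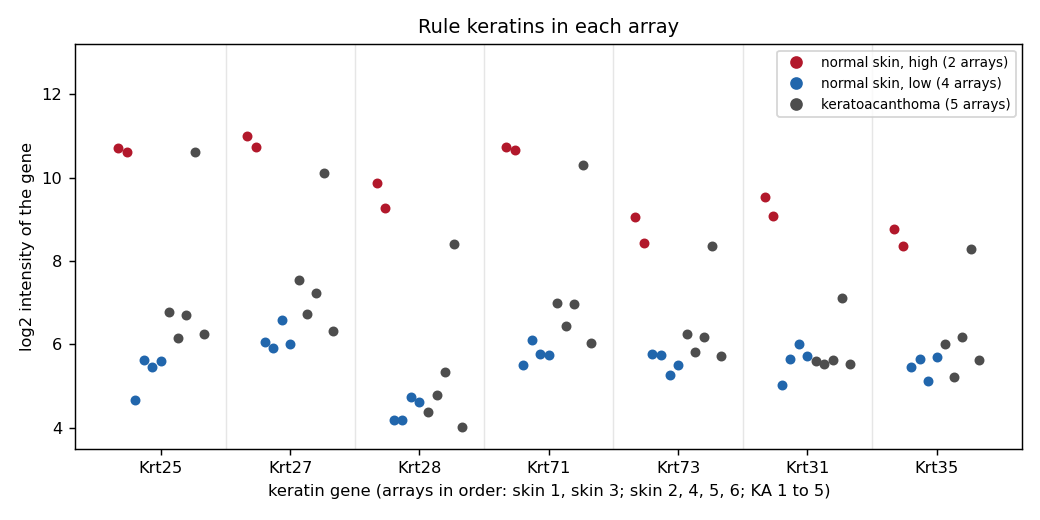
Log2 intensity of the 7 rule keratins in each of the 11 arrays, 1 point an array, with high normal skins in red, low normal skins in blue and keratoacanthomas in grey. In every keratin the 2 red points lie above the 4 blue ones, and 1 tumour, keratoacanthoma 4, lies above the blue points and the other tumours, from 7.11 in Krt31, well below the red points, to 10.61 in Krt25, level with them.

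Each of 2 genotypes held 1 high and 1 low skin. The mean over rule keratins was 9.95 in normal skin 1 against 5.24 in normal skin 2 of the same genotype, 9.59 in normal skin 3 against 5.55 in normal skin 4, and 5.56 in both Zmiz1 skins. Over all genes, an F test of the 3 normal genotypes, with the spread estimated on all 11 arrays, tumours included (limma, Benjamini-Hochberg), called 2 of 20352 genes, 0.00983% of those tested, Kir3dl1 and Zmat1. At an unadjusted p below 0.05 there were 2320 genes, and 1306 when the fit used the 6 normal skins only. Genes apart between high and low skins vary within 2 genotypes by their choice, so that this test says nothing about them.

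Xist, the RNA of the inactive X chromosome, read 4.69, 4.73, 4.47 and 4.29 in normal skin 1 to 4 and 9.95 and 9.57 in normal skin 5 and 6. The Y-linked genes Kdm5d, Eif2s3y and Uty were low in the same 2 skins and high in the other 4, so that both high skins share this pattern with normal skin 2 and 4. It cannot be told apart from the Zmiz1 genotype, and Kdm5d itself, at 7.46 and 7.24 against 6.72, 6.78, 3.87 and 3.75, met the count below. With normal skin 2 and 4 alone as the low group, a comparison chosen after the values were seen, 323 genes were higher and 157 lower. Fewer arrays then have to stay apart. They included 242 of the 264 higher genes of the count below, but only 66 of its 110 lower genes.

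Over all genes, 264 were higher and 110 lower in the high skins by at least 1 on the log2 scale with no overlap between the arrays, 1.30% and 0.540% of the 20352 genes. The higher genes reached much further: 83 differed by at least 2, against 5 of the lower genes. Of the 264, 24 were keratins (of 53 measured) and 40 keratin-associated proteins (of 44 measured), and 57 had a low-group mean below the 25th percentile of the arrays, where a level is near background. The same-genotype pairs are made of arrays that chose these genes and are no repeats of the contrast. Both pairs differed by at least 1 in 186 of the 264 higher genes, against 201 of all 20352 genes in that direction, and in 31 of the 110 lower genes. Normal skin 5 and 6, the Zmiz1 skins, were the 2 highest arrays in 33 of the 110 genes and in 2127 of all 20352 genes. These shares are not alike, since the count already places normal skin 1 and 3 lowest in the 110. In the 264 the count itself keeps normal skin 5 and 6 from being highest.

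**Figure D2:**
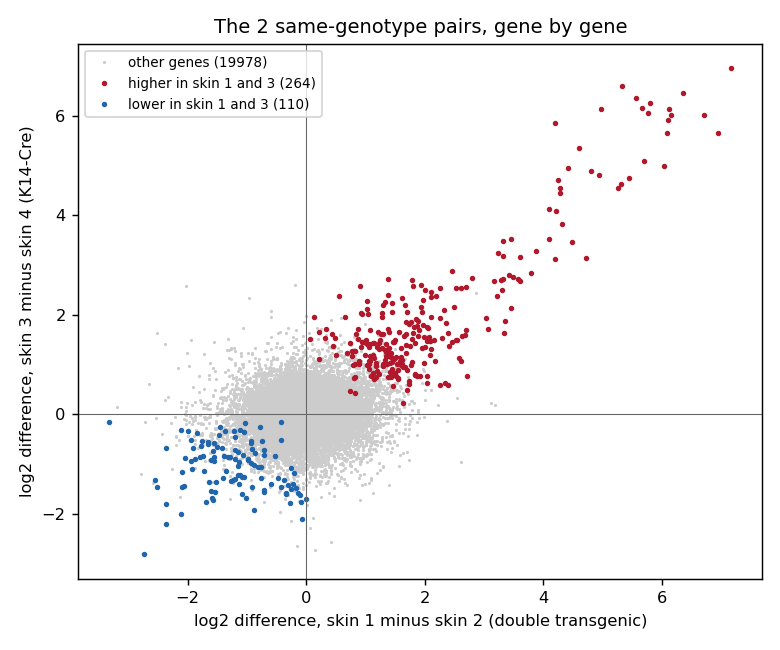
Log2 difference of each of 20352 genes between normal skin 1 and 2 (horizontal, K14-Cre;Zmiz1) and between normal skin 3 and 4 (vertical, K14-Cre), with the 264 higher genes in red and the 110 lower genes in blue. The red points reach to about the same height on both axes, with medians of 1.68 and 1.53, while the blue points stay nearer the origin, with medians of -1.20 and -1.05.

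Keratins of both the sheath and the shaft lay higher. All 8 inner root sheath keratins measured were higher, with a median difference of 4.82 and a range from 2.16 (Krt74) to 6.13 (Krt26). Krt26 read 10.59 and 10.13 in normal skin 1 and 3 and 4.43, 4.11, 4.34 and 4.03 in the low skins. Of 14 hair shaft keratins, 12 were higher, with a median of 2.13 and Krt86, a type II cortex keratin, furthest apart at 6.29. Its levels were 10.70 and 10.76 in the high skins and 4.93, 4.71, 3.95 and 4.16 in the low ones, a 78.3-fold difference. The remaining 2 shaft keratins, Krt32 of the cuticle and Krt40, were also above all low skins, by 0.52 and 0.89, short of the threshold. The median over all genes was 0.003. Krt81, Krt83 and Krt86, and likewise Krt33a and Krt33b, are near-identical copies whose probes can share signal, so their values are not separate evidence.

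Keratin-associated proteins, the matrix in which shaft keratins are embedded, included the gene furthest apart of all, Krtap15 (6.81). Of 44 measured, 40 were higher, with a median of 3.01. Krtap15 read 11.29 and 11.48 in the high skins against 4.12, 4.53, 5.34 and 4.31 in the low ones, a 112-fold difference. Krtap6-5, a glycine and tyrosine rich member, read 10.37 and 10.46 against 4.58, 4.19, 3.86 and 2.76. No low skin came within several units of the high pair in either gene. Normal skin 1 and 3 were level in this family, with a median difference of 0.02 between them and 24 of 44 genes higher in normal skin 1. The 4 members outside the count were Krtap13, Krtap10-10, Krtap5-3 and Krtap10-4, with differences of 0.10, 0.34, 0.68 and 0.68.

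Proteins that bind, crosslink or join these layers went the same way in 15 of 26 genes, with none lower and a median of 1.16. Tchh, trichohyalin of the inner root sheath and medulla, read 11.85 and 11.81 against 7.25, 6.45, 6.44 and 7.16. S100a3, a calcium-binding protein of the hair cuticle, read 10.09 and 9.87 against 5.81, 5.41, 4.98 and 4.89. The first rests on 1 probeset and the second on 4. Gprc5d, an orphan receptor of hair-forming cells, differed by 3.94 and Dsg4, a desmosomal cadherin of the shaft, by 3.28. The peptidylarginine deiminases Padi3, Padi4 and Padi1, enzymes that citrullinate proteins, differed by 2.09, 1.70 and 1.06. Slc7a8, an amino acid transporter, read 6.32 and 5.82 against 3.75, 4.69, 4.78 and 4.57.

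The largest differences outside the keratin families included genes less tied to hair. Crnn, cornulin of the cornified envelope, read 9.80 and 9.56 in the high skins against 5.49, 5.74, 4.85 and 5.42. Gjb2, the gap junction protein connexin 26, read 9.46 and 9.40 against 6.76, 6.86, 6.86 and 7.12, and Tubb3, a beta tubulin, 8.96 and 8.96 against 6.16, 6.24, 5.82 and 7.16. Klk6, a secreted serine protease, differed by 2.31, Ctse, the aspartic protease cathepsin E, by 2.47 and Prr9, a proline-rich protein, by 2.82. Car6, a secreted carbonic anhydrase, differed by 3.11 although normal skin 6, at 7.61, stood above normal skin 2, 4 and 5, at 5.37, 5.90 and 5.83. Calhm4, Ly6g6d, Pinlyp and Rnase12 differed by 3.27, 3.35, 3.10 and 3.02.

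**Figure D3:**
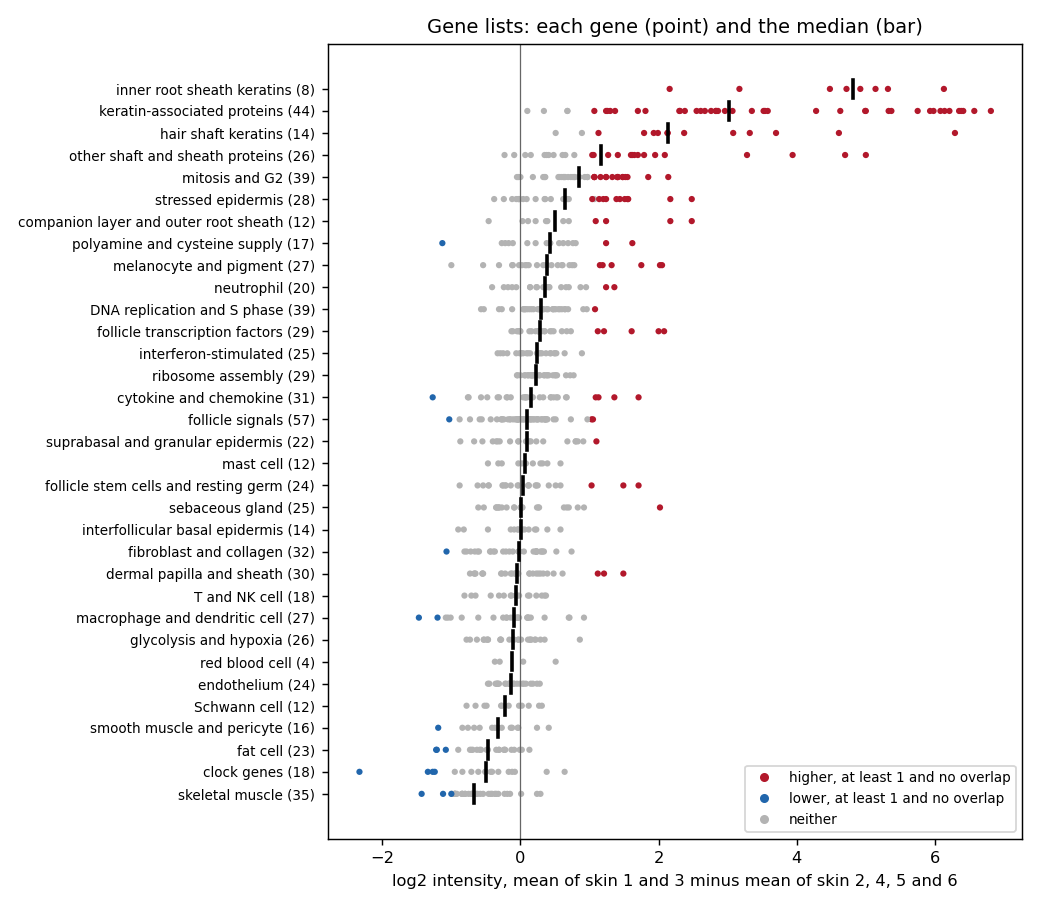
High minus low log2 difference of every measured gene of 33 gene lists, with the list's number of genes in brackets, red where a gene is higher by at least 1 without overlap, blue where it is lower and grey otherwise. Bars mark list medians, which run from 4.82 in the inner root sheath keratins to -0.68 in skeletal muscle; sheath and shaft keratins include those that chose the arrays.

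Transcription factors of the follicle held 5 higher genes of 29 and no lower one, with a median of 0.28. These were Msx2 (2.08) and Hoxc13 (2.00), homeodomain factors of the matrix and of the shaft, Dlx4 (1.60), Lef1 (1.21), the nuclear partner of beta-catenin, and Dlx3 (1.12). Hoxc13 read 8.61 and 8.03 against 6.32, 6.49, 6.23 and 6.21. Foxn1, a regulator of hair keratins whose loss gives the nude phenotype, read 6.07 and 6.25 against 5.95, 5.96, 5.96 and 5.65, a difference of 0.28 without overlap. Among the 57 signalling genes, 2 were higher, Jag1 (1.05), a Notch ligand, and Lgr5 (1.03), a receptor of R-spondins that marks cycling stem cells, and 1 was lower, Igfbp3 (-1.03), with a median of 0.10. Shh, the ligand of the growing bulb, differed by 0.01, at 5.10 and 4.94 against 5.11, 5.24, 4.95 and 4.70. Fgf18, a signal made in resting follicles, read 7.26 and 7.12 against 8.21, 8.07, 8.03 and 7.98, a difference of -0.88 with no overlap, while Fgf5, which ends growth, was 0.73 higher. Among 30 genes of the dermal papilla and sheath, 3 were higher, Vcan, Lef1 and Inhba, with a median of -0.05. Of 24 stem cell and resting germ genes, 3 were higher, Wfdc18 (1.71), Tnc (1.49) and Lgr5, and the median was 0.04.

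Of 12 companion layer and outer root sheath genes, 4 were higher, Krt6b (2.48), Krt16 (2.17), Krt6a (1.24) and Krt75 (1.09), and the median was 0.50. Krt75, a keratin of the companion layer, read 8.07 and 7.59 against 6.78, 6.57, 7.06 and 6.54. Krt6a, Krt6b and Krt16 are made in the outer root sheath and also in wounded or hyperplastic epidermis, so that 3 of these 4 genes stand in the stressed epidermis list as well. In that list 11 of 28 were higher, none lower, with a median of 0.65, among them the small proline-rich Sprr2h, Sprr1b and Sprr1a (1.56, 1.55 and 1.51). Krt6b read 9.04 and 8.36 against 6.94, 5.90, 5.02 and 7.01, so the low skins themselves spread over 1.99. The mean of the list was 6.85 and 6.74 in normal skin 1 and 3 and from 5.69 to 6.46 in the low skins. It lay between 9.38 and 10.20 in the 5 tumours, far above both.

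Melanocyte genes were higher in skin 1 and 3 in 6 of 27 cases, with none lower and a median of 0.39. They comprised the pigment enzymes Dct (2.02), Tyrp1 (1.75) and Tyr (1.15), the melanosome proteins Mlana (2.05) and Pmel (1.32) and, as the last, Syt4 (1.19). Mlana read 9.26 and 8.27 against 6.85, 6.92, 6.48 and 6.61, and Dct 7.95 and 7.61 against 5.70, 5.07, 5.95 and 6.33. All 5 defining markers of the lineage were thus higher, whereas Mitf, its transcription factor, differed by 0.37 and Oca2 by 0.54. Normal skin 1 was above normal skin 3 in 20 of the 27 genes.

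Genes of cell division lay higher in skin 1 and 3. Of 39 mitosis and G2 genes, 16 were higher and none lower, with a median of 0.85, and 31 lay above without overlap whatever the size, as did 2078 of all 20352 genes, while 1762 lay below. Ccnb2, whose promoter is shown above, read 8.78 and 8.61 against 6.81, 6.30, 6.71 and 6.40, and Plk1 6.71 and 6.28 against 4.17, 4.78, 4.92 and 4.72. Kinesin Kif11 differed by 1.52, the kinetochore motor Cenpe by 1.55 and the kinase Cdk1 by 1.48. Among 39 genes of DNA replication, 1 was higher, Uhrf1 (1.08), and the median was 0.29; whatever the size, 16 lay above and 1 below without overlap. Normal skin 1 exceeded normal skin 3 in 32 of the 39 mitosis genes, by a median of 0.35. Ribosome assembly genes held no member past the threshold in either direction, with a median of 0.22.

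Genes of amino acid supply went both ways. Of 17 genes for polyamines and cysteine, 2 were higher, Slc7a8 and Slc7a11, the cystine importer, which read 5.45 and 5.09 against 3.85, 4.11, 4.25 and 3.92. The glutamine transporter Slc1a5 was lower by 1.13. The median of the list was 0.43.

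The lower genes were led by the clock repressor Bhlhe41, at 5.26 and 4.95 in the high skins against 8.0, 7.77, 6.98 and 7.02 in the low ones, a difference of -2.33. Of 18 clock genes, 4 were lower and none higher, with a median of -0.50, the others being Per3 (-1.34), Nr1d2 (-1.27) and Nr1d1 (-1.24). Nr1d1, the nuclear receptor Rev-erb alpha, read 7.46 and 7.45 against 8.62, 8.66, 8.65 and 8.82, groups that were each narrow. Per1 and Dbp differed by -0.61 and -0.51 without overlap. Arntl, which is expressed in antiphase to them, differed by 0.38 with overlap, at 6.60 in normal skin 3 against 6.91 in normal skin 5. The time of day at which tissue was taken was not given in the labels. The motif CACGTG, to which clock factors are known to bind, stood in 6 of 21 promoters of this list (28.6%) and in 6.02% of all windows, on both strands over 250 bases.

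**Figure D4:**
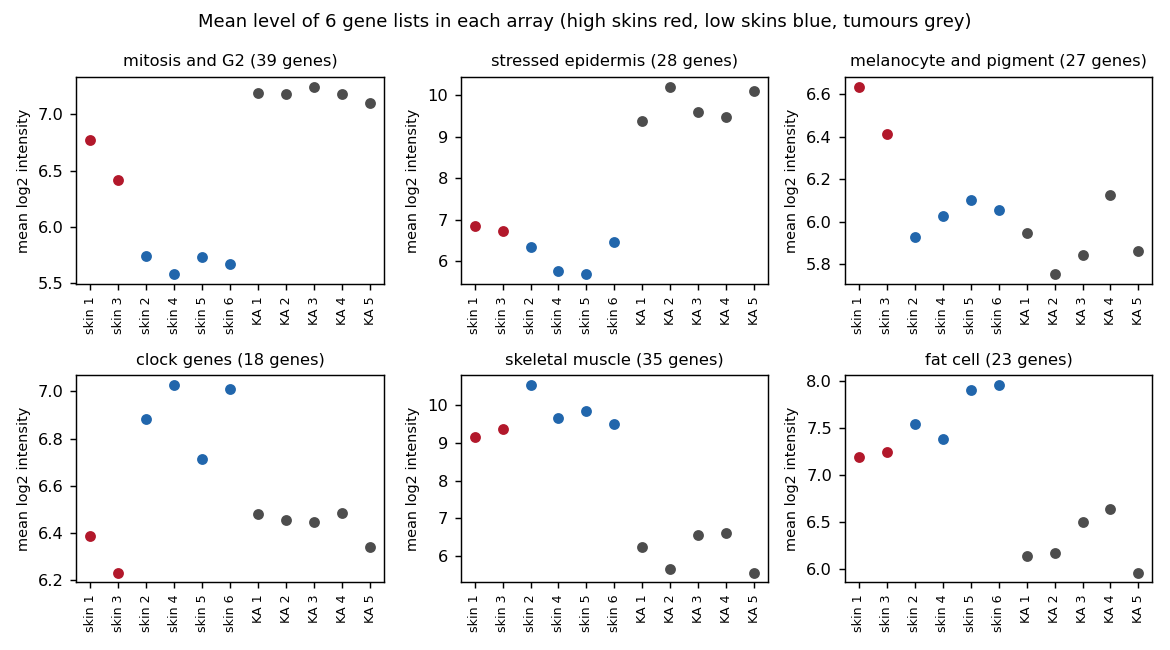
Mean log2 intensity of 6 gene lists in each array, high normal skins in red, low normal skins in blue and tumours in grey, each panel with its own vertical scale that does not start at 0. Mitosis genes stand at 6.77 and 6.41 in the high skins, between 5.58 and 5.74 in the low skins and between 7.09 and 7.25 in the tumours; clock genes stand at 6.39 and 6.23, between 6.71 and 7.03, and between 6.34 and 6.49.

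Among the other genes far lower, Cyp2e1, a cytochrome P450, read 6.44 and 6.61 against 8.81, 8.81, 9.05 and 8.58, and Mstn, the muscle growth inhibitor myostatin, 7.32 and 7.77 against 9.84, 9.24, 9.94 and 9.46. Both differed by more than 2 units, and in both the high skins were alike. Satb1, a chromatin organiser of lymphocytes and keratinocytes, differed by -1.68, the adipokines Rarres2 and Serpina12 by -1.68 and -1.65, Amy1, an amylase, by -1.63 and Scn7a, a sodium channel, by -1.59. Amy1 read 6.83 and 7.66 in the high skins, 8.29 and 7.91 in normal skin 2 and 4, and 9.57 and 9.72 in normal skin 5 and 6. Prkaa2, a catalytic subunit of the energy sensor AMPK, and Mylk4, a myosin light chain kinase, both differed by -1.86. Mup3, Cyp2f2, Skint7 and H2-M3 differed by -2.19, -1.55, -1.55 and -1.55. Retnla, a resistin-like protein of macrophages and fat, is low mainly in normal skin 1: it read 6.29 there, 9.38 in normal skin 3 and 9.61, 9.53, 11.20 and 10.30 in the low skins.

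Markers of other tissues in the pieces moved with the grouping to different degrees. Skeletal muscle, from the sheet beneath the skin, had 3 of 35 genes lower (Actn3, Mybpc2 and Myot), none higher and a median of -0.68, with list means of 9.15 and 9.37 in the high and 9.50 to 10.53 in the low skins. Whatever the size, 22 of the 35 lay below without overlap, as did 1762 of all 20352 genes. The list median was -1.585 for normal skin 1 minus 2 and -0.365 for normal skin 3 minus 4. Fat cell genes had 3 of 23 lower, Thrsp, Cfd and Car3, and a median of -0.47, with means of 7.20 and 7.25 against 7.39 to 7.96. Cfd read 8.70 and 8.99 in the high skins, 9.14 in both normal skin 2 and 4, and 11.01 and 10.95 in normal skin 5 and 6. The markers of both tissues were well expressed in all 6 skins. For the macrophage and dendritic cell list, H2-Aa and Cd74 of antigen presentation were lower, by -1.47 and -1.20, among 27 genes, and the list means overlapped. H2-Aa read 7.76 and 7.93 in the high skins, 8.01 and 9.01 in normal skin 2 and 4, and 10.05 and 10.19 in normal skin 5 and 6. The part of these tissues in the differences above was not tested.

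Few genes of the basal and suprabasal epidermis lists met the count. Of 14 basal epidermis genes none met the count in either direction, with a median of 0.004, and Krt5 read 11.13 and 10.96 against 10.77 to 11.17. The list median was 0.39 for normal skin 1 minus 2 and -0.168 for normal skin 3 minus 4. Of the other epidermal keratins, Krt14 was above all low skins, by 0.39, and Krt10 below all of them, by -0.35, while Krt1 overlapped. Of 22 suprabasal genes 1 was higher, Casp14 (1.10). The sebaceous gland list held 1 higher gene of 25, Elovl3 (2.02), a fatty acid elongase, beside Awat1 and Awat2 at differences of 0.01 and 0.00. Of the other markers of the gland, Mc5r was above all low skins, by 0.92, short of the threshold, and Scd3 differed by -0.53. The median of the list was 0.015. For the fibroblast list 1 of 32 was lower (Ogn) and for smooth muscle 1 of 16 (Des). Among fibroblast markers, the collagen gene Col1a1 read 9.54 and 10.06 in the high skins. It read 10.64 and 10.57 in normal skin 2 and 4, and 7.90 and 8.02 in normal skin 5 and 6. Col1a2 and Col3a1 also lay between these low skins in both high skins. The markers Dcn and Lum differed by -0.78 and -0.37. Endothelium, Schwann cell, T and NK cell, mast cell, interferon-stimulated, glycolysis and red blood cell lists held none in either direction. Neutrophil genes included 2 higher of 20, Il1b and Clec4d, while S100a8 read 7.06 and 7.81 against 7.64, 5.74, 5.63 and 7.91, which overlap. Among 31 cytokine genes 4 were higher, Ccl4 (1.71), Il1b (1.36), Cxcl14 (1.13) and Ccl2 (1.09), and Ccl24 was lower (-1.27).

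Normal skin 1 and 3 also differed from each other. Of the 264 higher genes, 204 differed by under 0.5 between them, against 17058 of all 20352 genes, and 180 were higher in normal skin 1, with a median of 0.18. Among genes alike in normal skin 5 and 6, the 5 largest differences each way were read. Above in normal skin 1 were Zfp345, Zfp934, Fyb2, Tor2a and Ccr4, and above in normal skin 3 were Ifna13, Nat8, Spata22, Mettl7a3 and Tmem140. None of these was among the genes higher or lower in both high skins. Zfp345, Zfp934, Fyb2, Ifna13, Nat8, Spata22 and Mettl7a3 had low-group means below 4.88, where a level is near background. Ifna13 read 1.56 and 3.93 in normal skin 1 and 3, and Nat8 2.79 and 4.69, so their differences lie near background. Spata22, at 5.02 and 6.88, was above this level in both. The low-group means of Tor2a, Ccr4 and Tmem140 were not near background.

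In the tumours, which the rule did not use, 1 array carried the same messages. The rule keratins averaged 9.02 in keratoacanthoma 4 and 6.22, 5.81, 6.32 and 5.65 in keratoacanthoma 1, 2, 3 and 5. This tumour was singled out after its keratin values were seen, so the following is a description. It lay above all other tumours and at least 1 above their mean in 88 of the 264 genes (33.3%), against 0.816% of all genes, and above all others whatever the size in 139 (52.7%), against 21.9% of all genes. Without keratins and keratin-associated proteins it was the highest tumour in 79 of 200 (39.5%), against 21.7% of all genes outside these families. It was also the highest tumour in 36 of the 110 lower genes (32.7%), which go the other way in the skins. Across the 264 genes its difference from the other tumours had a Pearson correlation of 0.85 with the high minus low difference, against 0.295 over all genes and 0.051 over the 110 lower genes, a description over genes that share arrays and include the keratins by which this tumour was singled out. All 8 inner root sheath keratins and 37 of 44 keratin-associated proteins were at least 1 above, and 0 of 39 mitosis genes were, with list means of 7.09 to 7.25 in all 5 tumours. For clock genes the count was also 0 of 18. For skeletal muscle it was 5 of 35 and for fat cell genes 4 of 23, lists with medians below 0 in high minus low. The list means of keratoacanthoma 4 were 6.62 for muscle, against 5.56 to 6.57 in the other tumours, and 6.64 for fat, against 5.96 to 6.50.

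**Figure D5:**
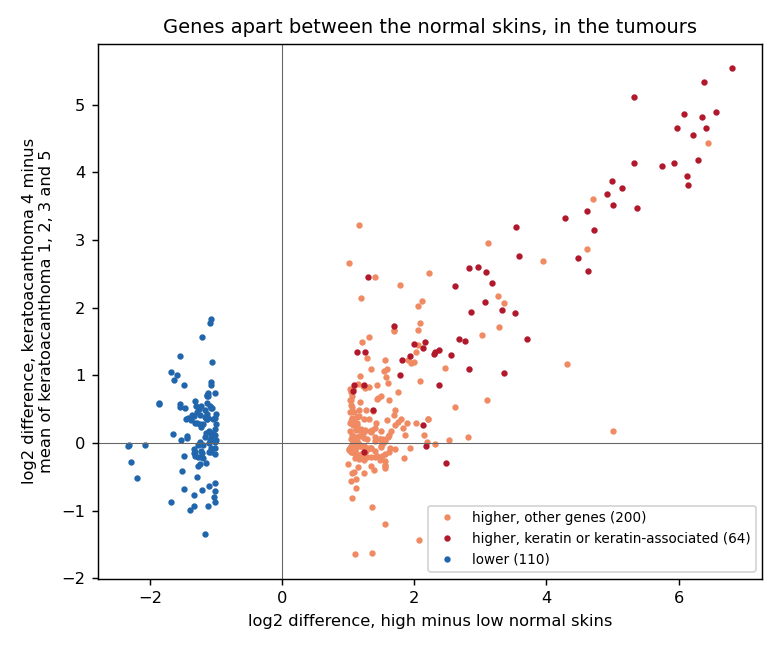
For the 374 genes apart between the normal skins, the high minus low difference (horizontal) against keratoacanthoma 4 minus the mean of the other 4 tumours (vertical), both in log2. Keratins and keratin-associated proteins (dark red, 64 genes) extend along both axes, whereas many other higher genes (orange, 200) and the lower genes (blue, 110) lie around 0 on the vertical axis.

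Whether these genes separate tumours from normal skin depended on which skins served as reference. With all 6 skins, as the labels group them, limma called 2959 genes higher and 2200 lower in keratoacanthoma, 14.5% and 10.8% of those tested at a Benjamini-Hochberg adjusted p below 0.05. Of the 264 genes 86 rose and 2 fell, and of the 110 genes 3 rose and 62 fell. The refits with a part of the skins describe how the reference moves a value and are no tests, since that part was picked by measured values. The 264 and 110 genes were counted for a difference between these parts. The direction of their shift between the refits was therefore fixed in advance. Against the 4 low skins 123 of the 264 were called higher and none lower, beside 2826 and 2187 of all genes. Against the 2 high skins 41 were called higher and 110 lower, beside 1940 and 1219 of all genes. Their median tumour minus normal difference went from 0.14 with all skins to 0.97 and -0.86.

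In single genes, the differences against the low and the high skins lie apart by the gene's high minus low difference. Tchh was 2.98 higher in tumours than in all 6 skins (SE 0.98, limma adjusted p = 0.040), 4.64 higher than in the low skins and 0.36 lower than in the high skins, since all tumours read 11.34 to 11.61. Ccnb2 rose by 1.68 (SE 0.43, limma adjusted p = 0.012), and the difference was 2.39 against the low and 0.25 against the high skins. Krt25 showed 0.19 (SE 1.21, limma adjusted p = 0.93) with all skins, against 1.96 and -3.36. Nr1d1 fell by 1.09 (SE 0.26, limma adjusted p = 0.0086), and differed by -1.50 from the low and by -0.26 from the high skins. Krt6b kept its direction throughout, at 4.34 (SE 0.57, limma adjusted p = 0.00014), 5.17 and 2.69. The mitosis list had 34 of 39 genes higher in tumours with all skins, 36 against the low and 19 against the high skins. For the clock genes 7 of 18 fell with all skins, 9 against the low and 1 against the high skins, and 3, 2 and 3 rose.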

How the data were processed

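The authors deposited log2 intensities of 241576 probesets on 11 arrays, made per the submitters' processing notes with RMA and Partek on build mm9; versions were not given in the sources used here. RMA includes quantile normalization, which holds array distributions alike (medians 6.22 to 6.27), and the deposited log2 values were kept. RNA was amplified before labelling, per the labels' protocols. The 211507 probesets that name 1 gene (590 identical copies dropped) gave 20352 genes, each the median over its probesets (median 8). Symbols were updated through RefSeq's table (2742 of 20416). Promoter sequences are RefSeq's windows for 27025 genes.

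High minus low is the difference of means of gene values; a gene counts when it is at least 1 and the arrays do not overlap. Tests were limma 3.58.1 in R 4.3.3 (lmFit, eBayes, Benjamini-Hochberg) on label groups; other values used Python 3.11.15. A permutation test of the rule keratins by genotype was not used, since these keratins chose the arrays. The members and gene lists were chosen with earlier results of these data known, and some genes (Xist, Y-linked genes, Shh, Fgf18, Fgf5, Foxn1, Mitf, Oca2, Dbp, Per1, Arntl and single keratins) after their values were seen. Other named genes are the rule keratins, the 15 largest differences each way (families and unofficial symbols left out), up to 5 counted members a list, and 5 each way between normal skin 1 and 3. Alternatives took the probesets' mean, left out probesets dim on every array (below the 25th percentile), or used quantile normalization, centring, other groupings, thresholds and references, a replicate block, eBayes with trend and robust, and each array left out. Counting and fits were tested on simulated data. Array number limits the precision.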

Additional observations from a re-analysis of the deposited data

Results flagged for a closer look

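Outlying arrays were sought in 71 measures over the 5 tumours and over the 6 normal skins, 142 groups in all, by Dixon's test at the 95% level, which chance passes in about 1 of 20 groups. It marked 20, of which 15 were keratoacanthoma 4 at the high end. For list means these were the rule keratins (9.02), shaft keratins (7.44), inner root sheath keratins (8.77), other shaft and sheath proteins (7.60) and keratin-associated proteins (8.59). For single genes they were Krt25 (10.61), Krt71 (10.30), Krt73 (8.36), Krt31 (7.11), S100a3 (9.47), Car6 (8.33), Ly6g6d (7.75), Gprc5d (7.43), Calhm4 (7.29) and Rnase12 (5.97). These genes were picked for high hair keratin skins and are not independent of each other.

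The other marked arrays were normal skin 2, low in suprabasal epidermis (8.71) and sebaceous gland (6.90) genes, normal skin 1, low in Retnla (6.29), keratoacanthoma 1, low in macrophage genes (6.08), and keratoacanthoma 5, low in clock genes (6.34). In 2 lists the same-genotype pairs went opposite ways by more than normal skin 5 and 6 differed: the pair with both transgenes minus the K14-Cre pair came to 0.57 for basal epidermis and -0.59 for mast cell genes, a difference that was not tested. Of 25004 probesets that name no gene, 363 (1.45%) were higher and 371 (1.48%) lower in the high skins by the same count.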

How the results depend on the processing

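The 264 higher genes became 227 with the mean over probesets, 262 to 363 with each skin left out and 83 at a difference of at least 2, and stayed within 1.5 times of 264 under every other alternative run. The 110 lower genes were less stable: 71 with the mean over probesets, 49 with at least 1 in both same-genotype pairs, 5 at a difference of at least 2, and 114 to 223 with each skin left out, 205 without normal skin 1, 173 without normal skin 2 and 223 without normal skin 3, where fewer arrays have to stay apart. Grouping by shaft or by sheath keratins alone gave the same arrays. Of the counted genes named above, most but not all (not Padi1, Padi4 or Ube2c) were checked, and none changed sign. With arrays left out or paired none could, since the count asks for no overlap, so only the other probeset summaries and normalizations bear on this. Tumour minus normal counts of 2959 and 2200 rose to 3667 and 3214 with the mean over probesets. They were 1940 and 1219 with normal skin 1 and 3 alone as reference (fewer arrays). With each array left out they were 2406 to 2942 and 1612 to 2207, and with the title's number as a replicate block 2596 and 1716. Numbers do not pair the arrays: same-numbered arrays deviated with correlations of -0.18 to 0.10. The genotype F test called 2 to 3 genes. Levels near background limit the folds of low genes.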
